A study of Mus musculus with 4 samples.

Results

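The nuclear genes for subunits of respiratory chain complexes II, III and IV, of cytochrome c and of complex V were examined for open chromatin in newborn mouse hearts of wild-type mice and of mice with a cardiomyocyte-specific deletion of the retinoid X receptors alpha and beta. The set held 32 of the 21627 protein-coding genes on chromosomes 1 to 19 and X: 4 of complex II, 9 of complex III, the cytochrome c gene Cycs, 14 of complex IV and 4 of complex V. It was chosen by name, not by measured values, though with earlier results of these data known. Its regions were all called peaks within 5 kb of these gene bodies, with overlapping peaks of different libraries merged, which gave 61 of the 53140 merged regions. None of the 61 belonged to 2 of these genes.

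Complex II (succinate dehydrogenase) feeds electrons from the citric acid cycle into the respiratory chain, complex III passes them to cytochrome c, complex IV (cytochrome c oxidase) hands them to oxygen, and complex V makes ATP from the proton gradient. Heart muscle takes most of its ATP from this chain and turns towards fatty acid oxidation around birth. Several complex IV subunits exist in a form found in most tissues and a form enriched in heart and skeletal muscle, encoded by separate genes. Retinoid X receptors are nuclear receptors that bind DNA with partners such as the PPAR family, and NRF1, GABP, YY1 and the estrogen-related receptors are factors known for acting on respiratory chain promoters.

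Hearts came from C57BL/6 mice at postnatal day 0. The WT group (n = 2 libraries) was wild type, and the edKO group (n = 2 libraries) carried a cardiomyocyte-specific deletion written RXRab-/- in the labels, that is, of the alpha and beta receptors. Each library was made from the nuclei of 1 whole heart, so it also held cells that the deletion did not target, and fewer nuclei of a type and less open chromatin per nucleus cannot be told apart. The sources used here name neither the Cre driver nor the alleles of the WT hearts at these loci, and sex is not labelled. ATAC-seq inserts adapters into open DNA with the transposase Tn5. The authors called peaks in each library separately, on GRCm38.

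The 4 peak lists held between 27142 and 38809 peaks, fewer in both edKO libraries. Median summit pileup, the number of reads or fragments stacked at the highest point of a peak, was 23 in each WT library, 19 in edKO 1 and 18 in edKO 2. Sets of 4 values are those of WT 1, WT 2, edKO 1 and edKO 2, in this order. The lowest local background, which follows depth, was 1.81, 1.80, 1.51 and 1.92. Over the top 10000 peaks of a list the median fold enrichment was 10.8, 11.5, 10.2 and 7.61, so edKO 2 had the lowest enrichment. A library without a call may still have had open chromatin there, at a level too low for the authors' threshold. Near the targeted genes, 7, 9, 7 and 6 of 10 regions were called at Rxra and 3, 3, 3 and 2 of 4 at Rxrb, which does not check the genotype because the deleted exons were not located. The starts of 13 of 14 cardiomyocyte marker genes were called in all 4 libraries (the exception was Myl7), as were 3 of 6 endothelial, 1 of 5 fibroblast, 2 of 4 smooth muscle and pericyte, 1 of 3 epicardial, 1 of 3 brown fat (Prdm16) and 0 of 4 immune, 0 of 3 erythroid, 0 of 4 skeletal muscle, 0 of 3 neuronal and 0 of 3 non-heart markers.

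The promoter sequences below carry the contrasts described in the following paragraphs. Cox8b and Cox7a1 are heart and muscle isoform genes, and Cox8a, Cox7a2 and Cox6a1 are ubiquitous forms. Cox7b is the gene whose start was called only in WT hearts, Uqcr11 is the other gene besides Cox8b whose start was called in 3 of 4 libraries, and Sdhb is the strongest start among the genes with a promoter window. Each runs 5′ to 3′ from 250 bases before the gene start to 30 bases after it, 280 bases in all, from RefSeq on GRCm38.p6. They lie at chr7:140900417-140900696 (minus strand, Cox8b), chr19:7217587-7217866 (minus, Cox8a), chr7:30183921-30184200 (plus, Cox7a1) and chr9:79759824-79760103 (minus, Cox7a2). The others lie at chr5:115348929-115349208 (minus, Cox6a1), chrX:106015450-106015729 (plus, Cox7b), chr10:80406792-80407071 (minus, Uqcr11) and chr4:140961021-140961300 (plus, Sdhb). Capitals mark matches, on either strand, to the NRF1 core (CGCANGCG), the GABP and ETS factor core (CCGGAAG), the SP1 GC box (GGGCGG) and the muscle form of the E-box (CAGCTG). YY1 (AANATGGCG), the estrogen-related receptor site (TCAAGGTCA), MEF2 and DR1 (a direct repeat of AGGNCA with 1 base between, the form known for PPAR with retinoid X receptors) were searched too and had no match in these 8 sequences.
Cox8b: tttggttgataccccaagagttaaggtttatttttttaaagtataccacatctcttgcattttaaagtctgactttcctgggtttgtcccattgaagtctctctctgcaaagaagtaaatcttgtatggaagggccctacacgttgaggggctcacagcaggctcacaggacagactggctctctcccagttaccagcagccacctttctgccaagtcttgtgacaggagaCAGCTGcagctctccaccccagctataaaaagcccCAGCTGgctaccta
Cox8a: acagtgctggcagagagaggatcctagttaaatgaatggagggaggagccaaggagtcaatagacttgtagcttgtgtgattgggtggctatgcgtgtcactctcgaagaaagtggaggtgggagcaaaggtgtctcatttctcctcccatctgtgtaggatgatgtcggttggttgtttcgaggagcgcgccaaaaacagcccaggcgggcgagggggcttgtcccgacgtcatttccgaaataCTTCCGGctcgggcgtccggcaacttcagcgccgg
Cox7a1: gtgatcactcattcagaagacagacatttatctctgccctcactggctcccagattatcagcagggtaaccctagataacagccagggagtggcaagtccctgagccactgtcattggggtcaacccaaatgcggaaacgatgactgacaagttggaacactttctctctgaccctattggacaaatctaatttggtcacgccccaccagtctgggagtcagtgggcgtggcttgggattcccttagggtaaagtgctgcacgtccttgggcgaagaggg
Cox7a2: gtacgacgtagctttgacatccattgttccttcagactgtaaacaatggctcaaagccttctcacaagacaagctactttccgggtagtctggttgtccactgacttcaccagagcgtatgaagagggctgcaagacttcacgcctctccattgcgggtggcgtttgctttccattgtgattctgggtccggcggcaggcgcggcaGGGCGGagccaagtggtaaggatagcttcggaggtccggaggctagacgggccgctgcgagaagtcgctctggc
Cox6a1: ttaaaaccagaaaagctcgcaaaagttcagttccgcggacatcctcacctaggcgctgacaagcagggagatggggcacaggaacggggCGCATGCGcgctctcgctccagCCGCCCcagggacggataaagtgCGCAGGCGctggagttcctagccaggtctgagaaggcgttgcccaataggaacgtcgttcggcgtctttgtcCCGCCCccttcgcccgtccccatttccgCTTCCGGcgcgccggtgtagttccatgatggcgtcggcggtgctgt
Cox7b: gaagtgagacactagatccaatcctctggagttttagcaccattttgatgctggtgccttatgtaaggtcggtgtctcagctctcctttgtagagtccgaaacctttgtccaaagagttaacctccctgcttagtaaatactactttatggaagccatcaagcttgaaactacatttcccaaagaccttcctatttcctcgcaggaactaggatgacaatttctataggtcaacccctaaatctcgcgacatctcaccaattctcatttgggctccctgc
Uqcr11: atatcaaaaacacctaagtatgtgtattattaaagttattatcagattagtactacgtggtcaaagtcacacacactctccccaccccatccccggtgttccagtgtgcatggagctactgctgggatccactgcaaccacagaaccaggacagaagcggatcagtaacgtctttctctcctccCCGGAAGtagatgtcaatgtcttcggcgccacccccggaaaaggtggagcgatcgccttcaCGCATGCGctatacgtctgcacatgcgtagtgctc
Sdhb: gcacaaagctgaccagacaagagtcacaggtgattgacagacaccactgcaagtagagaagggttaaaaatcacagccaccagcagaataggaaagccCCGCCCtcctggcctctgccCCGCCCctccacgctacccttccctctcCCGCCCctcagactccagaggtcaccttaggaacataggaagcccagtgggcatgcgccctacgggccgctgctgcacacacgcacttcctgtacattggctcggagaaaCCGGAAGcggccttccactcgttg

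The printed sequences differ in how many of these letters they hold. Cox6a1 has 2 NRF1 cores, 1 ETS core and 2 GC boxes, Sdhb has 1 ETS core and 3 GC boxes, and Uqcr11 has 1 NRF1 core that spans the gene start and 1 ETS core. Cox8a has 1 ETS core across its start, and Cox7a2 has 1 GC box. Cox7a1 and Cox7b have no match to any of them. Cox8b has 2 muscle E-boxes, at -19 to -14 and at 17 to 22 counted from the first base of the gene.

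Open chromatin at the starts of these genes was nearly always called, in both genotypes. A gene-start region was a region over the RefSeq promoter window (250 bases before to 50 bases after the start) for the 22 genes that have one in the table used, or within 1 kb of either gene end for the other 10. Of the 32 genes, 28 (87.5%) had a gene-start region called in all 4 libraries, against 46.9% of all protein-coding genes. The exceptions were Cox8b and Uqcr11, called in both WT hearts and edKO 1, Cox7b, called in both WT hearts only, and Cox4i2, with no gene-start region in any library. Of the 61 regions of any kind, 40 (65.6%) were called in all 4 libraries, against 36.4% of all regions within 5 kb of a protein-coding gene. Most of the set are genes used in most cells, beside tissue-specific forms such as Cox8b and Cox4i2, and no test of either share was made. With regions within 5 kb of any other gene left out, 15 of the 32 had such a start.

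**Figure D1:**
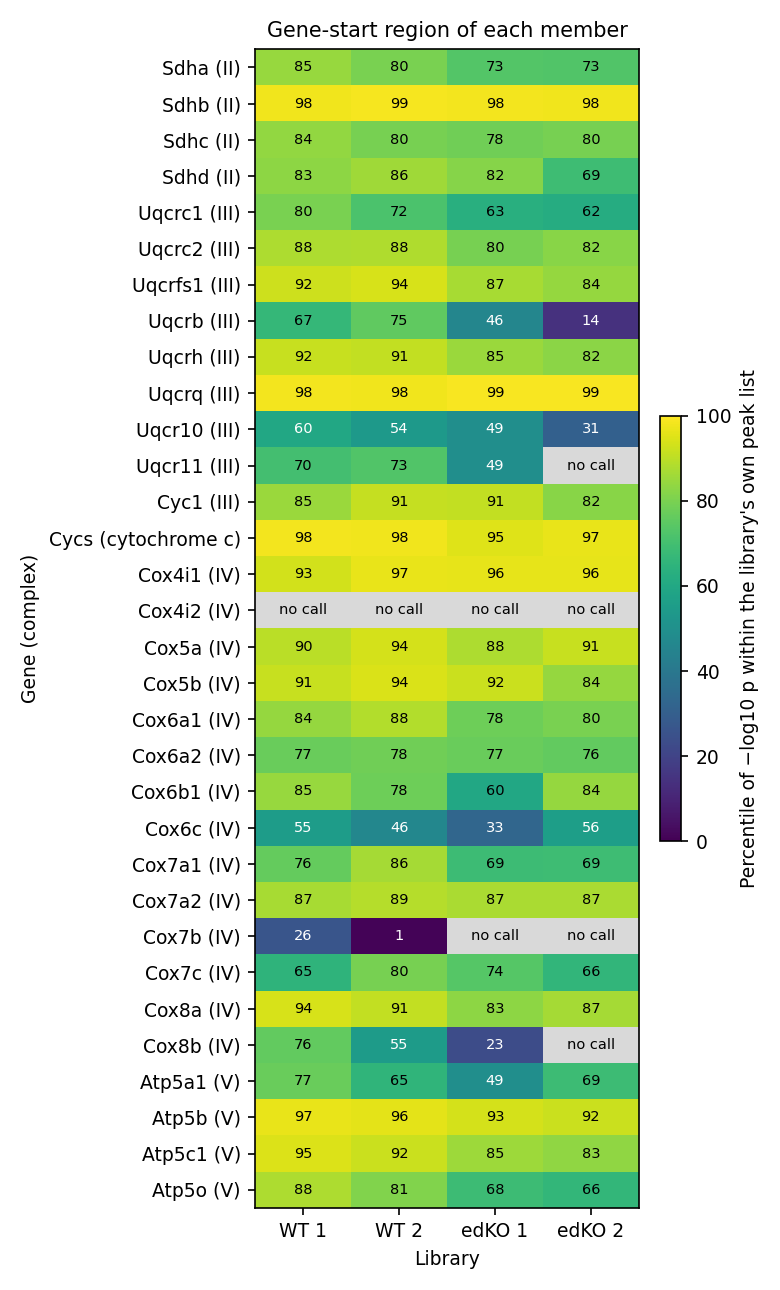
Strength of the gene-start region of each of the 32 genes (rows, with the complex in brackets) in each library (columns), as the percentile of its −log10 p within that library's own peak list, where 100 is the strongest peak. Grey cells are libraries with no call: Cox4i2 in all 4, Cox7b in both edKO libraries, and Cox8b and Uqcr11 in edKO 2.

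All 4 complex II genes had a start called in every library. Sdhb, which encodes the iron-sulfur subunit, was among the strongest starts of the set: the percentile of the authors' −log10 p within each library's own list, averaged over the 4 libraries with a missing call counted as 0 (the mean percentile), was 98.1. Its summit pileups were 181, 204, 140 and 108, so both edKO values lay below both WT values. That order held at 88.1% of all gene-start regions called in all 4 libraries, and pileups were not scaled for depth or enrichment. Sdha, the flavoprotein that oxidises succinate, had the lowest mean percentile of complex II, at 77.7. The membrane anchors Sdhc and Sdhd lay between, at 80.3 and 79.9.

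Complex III held both the strongest start of all and several weak ones. Uqcrq, a small supernumerary subunit, had a mean percentile of 98.5 and pileups of 174, 179, 144 and 121. Its region also reached over the gene body of its neighbour Gdf9. The core subunits Uqcrc1 and Uqcrc2 had mean percentiles of 69.1 and 84.4, the Rieske iron-sulfur protein Uqcrfs1 89.4, and the cytochrome c1 gene Cyc1 87.2. Among complex III genes called in every library, the lowest values were those of 2 small subunits, Uqcr10 at 48.4 and Uqcrb at 50.5, while Uqcrh, the hinge protein, was at 87.5. Uqcr11 was at 48.1 with its missing call in edKO 2 counted as 0, and at 64.1 over the 3 libraries with a call. Thus 8 of 9 complex III genes had a start called in all 4 libraries.

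The start of Uqcr11 (chromosome 10, 80406571 to 80407044) had a −log10 p of 22.4 in WT 1, 24.9 in WT 2 and 10.9 in edKO 1, with pileups of 45, 54 and 24. It was not called in edKO 2. Another 2 regions within 5 kb of Uqcr11 were called in all 4 libraries, and both lay over Mbd3, a gene for a chromatin protein.

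Cytochrome c itself, the carrier between complexes III and IV, had 1 region, at the start of Cycs, called in all 4 libraries. Its mean percentile was 97.0 and its pileups were 148, 152, 86 and 77. Both edKO pileups lay below both WT pileups, as at 88.1% of all gene-start regions called in all 4 libraries.

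Complex IV had the widest range of the set, with mean percentiles from 6.89 to 95.6, and its 14 genes included 3 of the 4 without a start call in every library. At the top stood Cox4i1, the common form of the subunit that binds ATP as a regulator, with pileups of 115, 150, 104 and 90. Its partner Cox4i2, the form known from lung and induced by low oxygen, had no region at either end. Of the 3 regions near Cox4i2, the only one called in all 4 libraries lay 1391 bases from the gene and inside Bcl2l1 (chromosome 2, 152766430 to 152766880), which encodes a regulator of cell death. Its −log10 p was 16.5, 8.32, 10.6 and 7.16.

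At the lower end of complex IV, Cox6c, a small structural subunit, had a start called in all 4 libraries with pileups of 22, 19, 13 and 15 and a mean percentile of 47.7. Cox5a and Cox5b, subunits on the matrix side of the complex, had mean percentiles of 90.6 and 90.5. Cox6b1 (76.7) and Cox7c (71.1) lay in the middle. Cox7c was the only one of the 28 genes with complete calls whose WT and edKO pileups overlapped, at 24 and 40 in the WT hearts and 27 and 18 in the edKO hearts. Over the genome, both WT pileups exceeded both edKO pileups at 88.1% of gene-start regions called in all 4 libraries. Pileups were not scaled for depth or enrichment.

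All 4 complex V genes had a start called in all 4 libraries. Atp5b, the catalytic beta subunit, was the strongest, at a mean percentile of 94.5 and pileups of 152, 146, 87 and 63. The alpha subunit Atp5a1 was at 65.1, the central stalk subunit Atp5c1 at 88.9 and Atp5o, the link between head and peripheral stalk, at 75.8. Atp5b was the only one of the 32 genes with 4 or more regions. It had 5, of which 4 were called in all 4 libraries, but all except its start lay 597 to 4266 bases beyond the gene towards or inside Baz2a, a chromatin remodelling gene whose own promoter window one of them covered.

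Among the heart and muscle isoforms of complex IV, Cox6a2 and Cox7a1 had starts called in all 4 libraries, as had all 3 ubiquitous forms, while the start of Cox8b was called in 3 (n = 2 libraries a group). Cox6a2 had percentiles of 77.3, 78.3, 77.1 and 76.2 and pileups of 49, 49, 38 and 32. Its ubiquitous partner Cox6a1 had percentiles of 84.3, 88.4, 78.1 and 80.1 and pileups of 64, 77, 39 and 33. In both genes the edKO pileups lay below the WT pileups, as at most gene starts of the genome. No strand is given for Cox6a2 in the tables used, and its region (chromosome 7, 128206147 to 128206567) lay over its higher-coordinate end.

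Cox7a1 (chromosome 7, 30183918 to 30184455) had pileups of 49, 72, 30 and 27 and percentiles of 76.5, 86.3, 68.6 and 69.1. At Cox7a2, the ubiquitous form, pileups were 62, 70, 48 and 38 and percentiles 87.0, 88.9, 87.3 and 87.4. Pileups of both genes were lower in both edKO hearts than in both WT hearts, as at most gene starts of the genome. The percentiles are ranks in lists of different lengths, so they show no change between hearts, and the difference between the 2 genes was not tested.

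Of the 3 pairs, only Cox8b and Cox8a differed in the number of libraries with a start call. The start of Cox8b (chromosome 7, 140900270 to 140900607) had a −log10 p of 29.0 in WT 1, 13.6 in WT 2 and 6.78 in edKO 1, pileups of 44, 29 and 14, and no call in edKO 2. Its percentiles were 75.9, 55.0 and 23.1 in those libraries, as ranks in lists of different lengths. The unscaled pileups of the WT hearts, 44 and 29, also lay apart from each other. Cox8a, the ubiquitous form, was called in all 4 libraries with pileups of 116, 99, 52 and 49 and percentiles of 94.1, 90.7, 82.9 and 86.6. A further region 2825 bases upstream of Cox8b (140903271 to 140903609) followed the same pattern of calls, with −log10 p of 11.8, 13.3 and 7.30 and no call in edKO 2. It did not overlap any other protein-coding gene.

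Raising the threshold to a −log10 p of at least 10 in every library left both Cox8b regions with calls in the WT hearts alone (WT-only). This follows from the −log10 p values above and adds nothing to them. At that threshold the set held 3 WT-only regions, the third being the start of Cox6c. Its −log10 p was 13.5 and 11.0 in WT and 7.98 and 9.56 in edKO. Median −log10 p of the whole lists was 11.9, 12.1, 11.0 and 8.54. The share of all regions that were WT-only at this threshold was not counted. The library without a Cox8b call, edKO 2, was also the one of lowest enrichment, and its part in the missing calls was not tested. The Cox6a2 and Cox7a1 starts were called in that library at a −log10 p of 18.1 and 13.9.

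**Figure D2:**
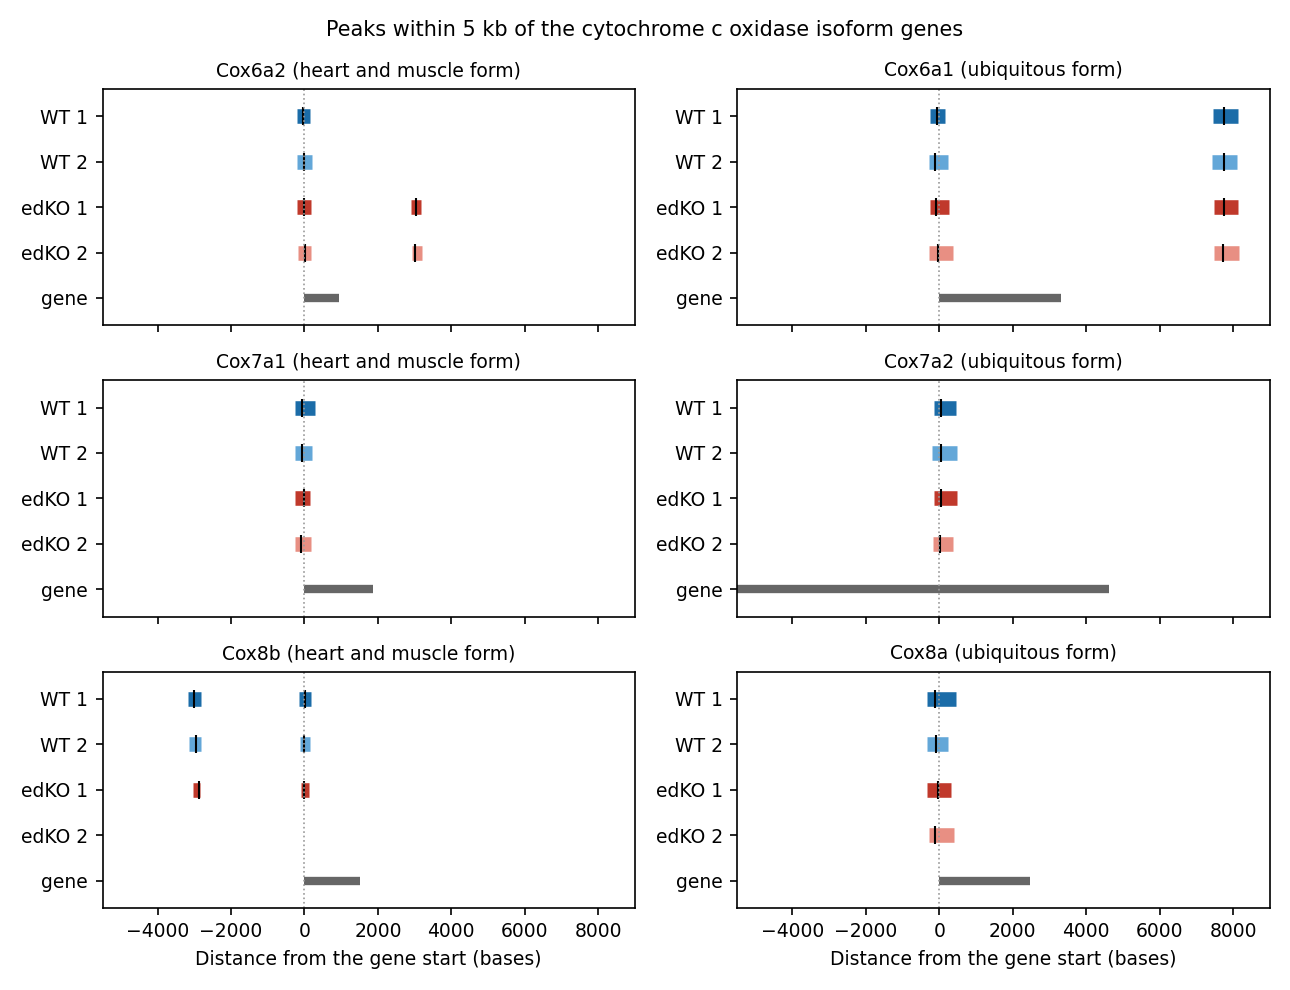
Called peaks (bars) with summits (black ticks) within 5 kb of the 3 heart and muscle isoform genes (left) and their ubiquitous forms (right) in WT 1, WT 2, edKO 1 and edKO 2; the x axis is the distance from the gene start in bases and the grey bar is the gene. For Cox6a2 the zero is its higher-coordinate end. Peaks at the gene start are present in every row except edKO 2 of Cox8b.

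Few regions of the set were called in 1 genotype only. A region with a call in each heart of a group and none in the other group was counted as WT-only or edKO-only. Among 45 regions with calls in both WT hearts, 2 (4.44%) were of the WT-only kind, against 16.6% of all regions within 5 kb of a protein-coding gene. Of those 45, 31 were gene starts. Among gene-start regions alone, 1 of 31 (3.23%) was WT-only against 3.77% in the genome, a share near the background. Away from the set's own gene starts, 1 of 14 (7.14%) was WT-only, beside 28.5% of regions away from the start of any gene. These shares are not like for like. The set's other regions include 7 over the promoter windows of neighbouring genes, all called in all 4 libraries, and such regions are left out of the 28.5%. In the other direction, 1 of 41 regions called in both edKO hearts (2.44%) was edKO-only against a background of 1.12%. That was 0 of 28 at gene starts, where the background was 0.417%. Elsewhere it was 1 of 13 (7.69%), beside 2.42% of regions away from the start of any gene, again not like for like. Leaving out WT 1, WT 2 or edKO 1 gave WT-only counts of 9, 4 or 5, and leaving out edKO 1 or edKO 2 gave edKO-only counts of 4 or 2. A rule that asks for fewer libraries is easier to meet, so these counts could hardly fall. The genome shares under that rule were not counted.

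The WT-only gene start was that of Cox7b, a small complex IV subunit encoded on the X chromosome (106015502 to 106015791). It was the weakest start of the set, with −log10 p of 7.70 and 4.40 in the WT hearts, pileups of 18 and 13, and percentiles of 26.5 and 1.10. With a −log10 p of at least 5 required in every list, or with lists of equal length, it was called in WT 1 alone. The 2 other regions near Cox7b, over the promoters of its neighbours Magt1 and Atp7a, were called in all 4 libraries. The X chromosome held 1.74%, 1.78%, 1.85% and 2.25% of the peaks.

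The other WT-only region lay at the far end of Uqcrc1 (chromosome 9, 108949328 to 108949657), within 5 kb of Col7a1. Its −log10 p values were 10.4 and 8.38 in the WT hearts, with pileups of 24 and 22. The start of Uqcrc1 was called in all 4 libraries, with pileups of 50, 39, 23 and 21. The edKO-only region lay 1983 bases from Cox6a2, inside the integrin gene Itgad (chromosome 7, 128203172 to 128203452). Its −log10 p values were 10.6 and 6.58 in the edKO hearts, with pileups of 21 and 18. At a −log10 p of at least 10, the Uqcrc1 region was called in WT 1 alone and the Itgad region in edKO 1 alone.

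**Figure D3:**
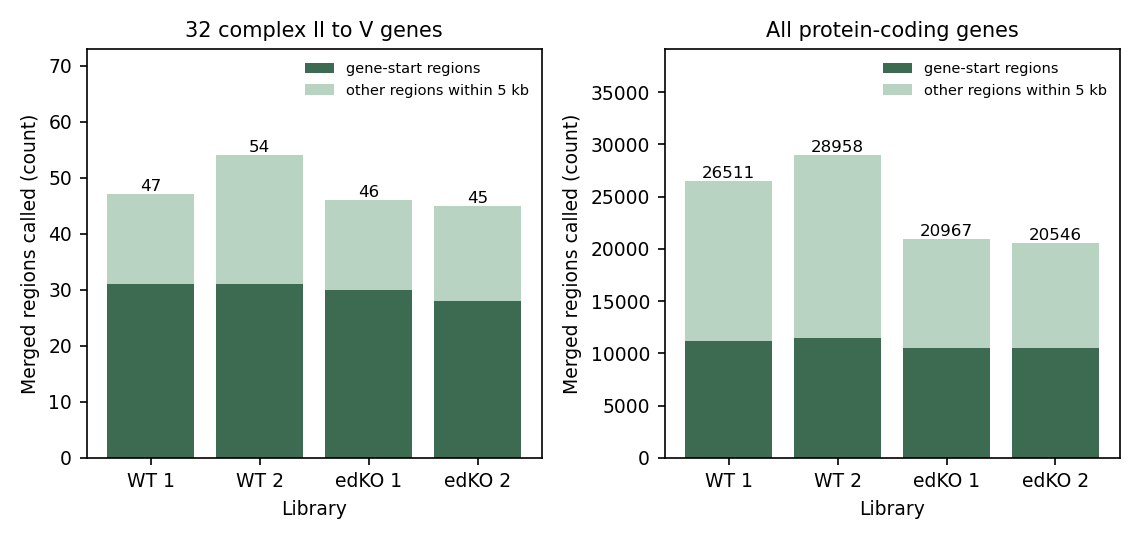
Number of merged regions called in each library within 5 kb of the 32 genes (left) and of all protein-coding genes (right), split into gene-start regions (dark) and other regions (light), with totals above the bars. The totals near the 32 genes are 47, 54, 46 and 45, against 26511, 28958, 20967 and 20546 near all genes.

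Counted per heart, slightly fewer regions near these genes were called in the edKO hearts. The counts were 47, 54, 46 and 45, that is 50.5 ± 4.95 (SD, n = 2) in WT and 45.5 ± 0.707 (SD, n = 2) in edKO. The difference of 5 regions had an exact permutation p of 0.333, two-sided, the lowest value possible for groups of this size. It came to 9.90% of the WT mean, where regions near all protein-coding genes were 25.2% fewer. Gene-start regions numbered 31, 31, 30 and 28, 6.45% fewer in the edKO mean against 6.95% for all gene starts. The other regions numbered 16, 23, 16 and 17 and overlapped between groups (exact permutation p = 1, two-sided). With lists of equal length the difference was 2 regions (exact permutation p = 0.667).

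The called length near the genes was 27683 and 30255 bases in the WT hearts and 23553 and 24238 bases in the edKO hearts, a difference of 5073.5 bases or 17.5% (exact permutation p = 0.333, two-sided). Peaks were about as many, 50, 56, 51 and 51, and narrower, with a mean width of 554 and 540 bases in WT against 462 and 475 in edKO. Over all peaks the called length was 28.9% lower in edKO. The 32 genes therefore took a larger share of all called bases in the edKO hearts, at 0.219% and 0.220%, than in the WT hearts, at 0.188% and 0.191%. Of their 61 regions, 31 were gene starts. Over the genome, gene-start regions called were 6.95% fewer in edKO, against 27.2% for all merged regions. The share of called bases at all gene starts was not computed, so the larger share is not shown to be particular to these genes. With windows of 250 bases on each side of the summits in place of whole peaks, the difference was 1002 bases (exact permutation p = 1).

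Where a gene start was called in all 4 hearts, its summit pileup was lower in the edKO hearts, and this was so for most genes of the genome. Both WT pileups exceeded both edKO pileups at 27 of 28 starts of the set (96.4%), against 88.1% of all 9423 gene-start regions called in all 4 libraries. The median ratio of the edKO to the WT mean was 0.534 over the 28 starts, from 0.396 at Atp5o to 0.751 at Uqcrq, and 0.618 over all 9423. At Atp5o the pileups were 77, 62, 29 and 26. Median pileups of the 28 were 63, 71, 41 and 35, beside 59, 63, 40 and 33 for all. Pileups were not scaled for depth or enrichment, which also differed between the libraries, and their part in these ratios was not tested.

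**Figure D4:**
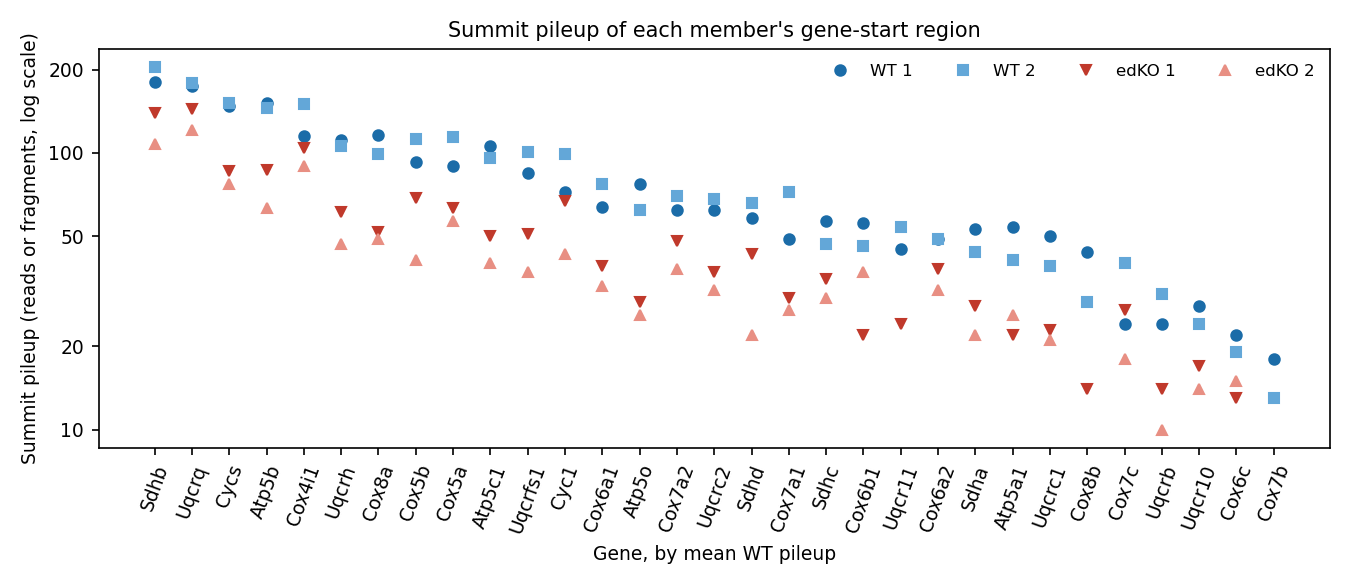
Summit pileup (reads or fragments, log scale) of the gene-start region of 31 genes, ordered by their mean WT pileup, with 1 symbol per library. At 27 of the 28 genes called in every library both WT symbols (blue) lie above both edKO symbols (red); Cox7c is the exception, and Uqcr11, Cox8b and Cox7b lack 1 or 2 edKO symbols.

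Within each library's own list the starts of the set ranked high. Their median percentile was 84.7, 86.3, 79.0 and 82.1, against 79.4, 79.9, 75.8 and 76.0 for all gene-start regions. In order of the mean percentile the top 3 were Uqcrq, Sdhb and Cycs and the bottom 3 Cox7b, Cox8b and Cox6c. The place of Cox8b, at 38.5, rests on its missing call counted as 0: over its 3 libraries with a call the mean was 51.3, above Cox6c, Uqcr10 and Uqcrb. Cox7b was lowest either way, at 6.89 or at 13.8 over both WT lists. In the lower part of the order, Cox6c, Uqcr10 and Uqcrb lay within 3 percentile points of each other, less than their spread over libraries. The start regions had a median width of 754 bases (290 to 1756), against 651 for all genes, and 76 of 84 summits with a known start lay within 250 bases of it.

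Several starts were shared with a neighbouring gene. The start region also covered the promoter window of another gene at 5 of 22 genes (22.7%), against 15.3% of the 9906 protein-coding genes with a called region over a promoter window. The pairs were Sdha with Ccdc127, Sdhd with Timm8b, Uqcrh with Lrrc41, Uqcr10 with Zmat5 and Atp5c1 with Kin. Timm8b encodes a chaperone of mitochondrial protein import, and Kin a DNA-binding protein. At Uqcr10 the summit of the strongest peak lay at -304, -261 and -299 bases from the start (negative is upstream) in WT 1, WT 2 and edKO 1. In edKO 2 it lay at 223 bases. The region held 1, 2, 2 and 2 peaks by library, so this position depends on which peak ranked highest.

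Away from the starts, calls were mostly the promoters of neighbours or single calls. Of the 30 other regions, 12 were called in all 4 libraries, all of them in the flanks, and 7 of those 12 lay over the promoter window of another gene. Another 13 were called in 1 library only: 2, 7, 1 and 3 by library. WT 2 was the library with the longest peak list. None of the 5 regions inside the gene bodies was called in all 4 libraries.

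CpG dinucleotides, the sites of DNA methylation, were fewest in the windows of Cox8b, Cox7b and Cox7a1, of which the first 2 lacked a start call in at least 1 library. The 22 windows held a median of 18.5 CpG (2 to 35), against 13 in the 21044 windows of all protein-coding genes. The lowest counts were 2 in Cox8b, 5 in Cox7b and 7 in Cox7a1, beside 19 in Cox8a, 20 in Cox7a2 and 32 in Cox6a1. Uqcr11, the other gene with a window and a missing start call, held 16. Over the genome, 4.81% of 7985 windows with at most 7 CpG lay in a region called in all 4 libraries, against 69.6% of 13059 windows with more. Across the 22 genes the CpG count and the mean percentile had a Pearson r of 0.656 and a Spearman rho of 0.657, and without Cox7b, Cox8b and Cox7a1 of 0.471 and 0.491 (19 genes). With the mean taken over called libraries they were 0.644 and 0.659. These are descriptions across genes measured in the same 4 libraries, and genes are not independent replicates.

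**Figure D5:**
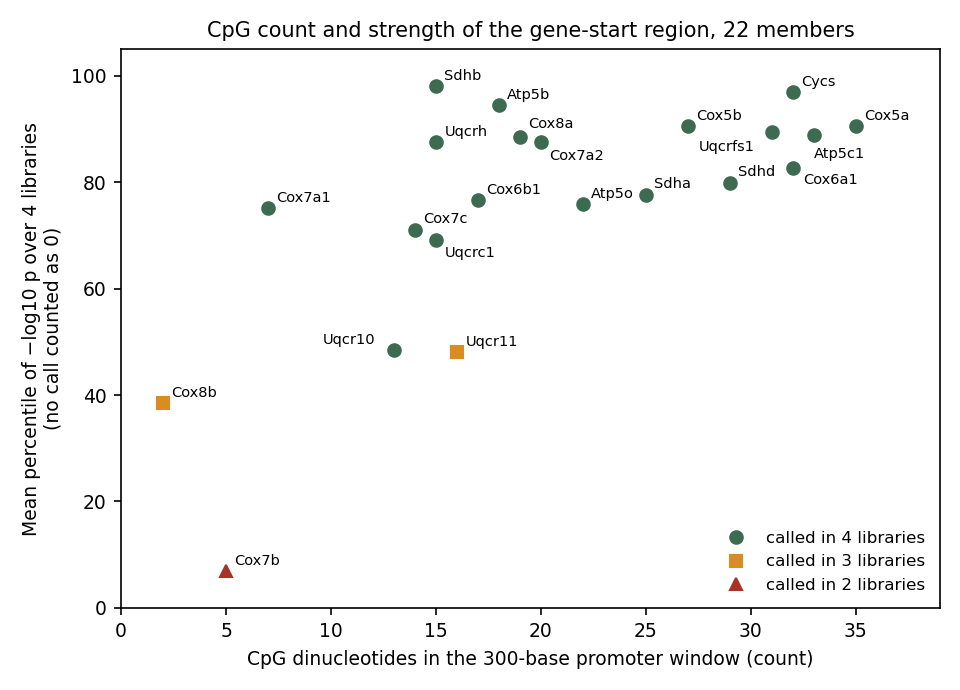
CpG dinucleotides in the 300-base promoter window (x axis, count) and mean percentile of the gene-start region over 4 libraries (y axis, a missing call counted as 0) for the 22 genes with a window. Colour and shape give the number of libraries with a call. Cox8b and Cox7b, with 2 and 5 CpG, lie lowest (Cox8b with its missing edKO 2 call at 0), and Cox7a1, with 7 CpG, lies at 75.1.

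Letters known for nuclear respiratory factors were frequent in these windows. In the full 300-base windows, the NRF1 core was present in 9 of 22 genes (40.9%), Sdha, Sdhd, Uqcrc1, Uqcr10, Uqcr11, Cycs, Cox6a1, Atp5c1 and Atp5o, against 11.2% of all windows. The GABP and ETS core was present in 7 (31.8%), Sdhb, Sdhd, Uqcrh, Uqcr11, Cox6a1, Cox6b1 and Cox8a, against 11.7%. The GC box was found in 7 (31.8%) against 46.7%, and the CCAAT box (CCAAT) in 12 (54.5%) against 38.5%. YY1 letters occurred in Atp5b alone (4.55% against 3.14%), and the estrogen-related receptor site in Sdhd alone (4.55% against 0.337%).

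DR1 and MEF2 letters were found in 0 of 22 windows, against 0.356% and 2.61% of all windows. The general E-box (CANNTG, which includes the muscle form) was in 16 (72.7%) against 69.0%, and its muscle form in 2, Cox8b and Atp5b (9.09% against 15.7%). The windows of Cox8b, Cox7b and Cox7a1, those of fewest CpG, held no NRF1, ETS or GC box letters. Each of these patterns contains CpG itself, so windows with few CpG can hold few matches. The motif shares were not matched for CpG count, whose median was 18.5 in the windows of these genes and 13 in all windows. A match describes the letters in a window of 300 bases and shows no binding.

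Starts of other genes of the same complexes were called about as often. Of 18 further subunits, 15 had a start called in all 4 libraries, against 46.9% of all protein-coding genes. The exceptions were Cox7b2 and Cox8c, which had no region in any library, and Atpif1, the inhibitor of the ATP synthase, whose start was not called in edKO 1. Regions called near them numbered 27, 27, 25 and 25. Of 26 called in both WT hearts, 1 was WT-only, 310 bases from Atp5j over its neighbour Gabpa (chromosome 16, 84836167 to 84836449, −log10 p of 7.44 and 6.41), and 0 of 23 called in both edKO hearts were edKO-only. The WT-only and edKO-only shares were 16.6% and 1.12% over all regions within 5 kb of a protein-coding gene. Over gene-start regions alone they were 3.77% and 0.417%.

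Of 36 assembly factors, 34 had a start called in all 4 libraries, against 46.9% of all protein-coding genes. Surf1, a complex IV assembly factor, was not called in edKO 2, and Cox10, which makes the haem of complex IV, was not called in edKO 1. WT-only regions made up 3 of 46, inside Sdhaf2 and Uqcc1 and 1560 bases from Uqcc2, and edKO-only regions 0 of 39. The same shares were 16.6% and 1.12% over all regions within 5 kb of a protein-coding gene, and 3.77% and 0.417% over gene-start regions. All 3 WT-only regions were weak, with percentiles between 11.1 and 33.5 in the WT lists.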

How the data were processed

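Peak lists of 4 ATAC-seq libraries were used, 2 from WT and 2 from edKO hearts, grouped and numbered by the sample titles; each came from 1 heart, per the labels' design text. Reads were handled with bcl2fastq, CASAVA, Bowtie2, cutadapt, MACS2 and SAMtools on mm10 (GRCm38), per the submitters' processing notes; versions, Tn5 shift and duplicate handling were not given in the sources used here. Each peak in the lists deposited by the authors has a fold enrichment (a ratio of pileup to local background at the summit), a −log10 p, a −log10 q and a score, the last 2 of which entered no result. These values are the authors' and rise with depth and enrichment. At single regions −log10 p was used to filter peaks at the same cut in every list and to rank peaks within a list. It was also printed side by side for the libraries, unscaled. Fold and the pileups solved from it were also set side by side between libraries, with no scaling for depth or enrichment.

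Pileup and background were solved from the deposited fold and −log10 p under a Poisson tail; pileups came out whole for 99.9943% to 100% of peaks in each list, to within 0.001 in −log10 p. Lists were left at their own thresholds (lowest −log10 p 3.00 to 3.04). Peaks overlapping by at least 1 base were merged, and a library was called in a region if one of its peaks was merged into it. Gene bodies, promoter windows and promoter sequences came from RefSeq tables of GRCm38.p6; all 32 genes matched, 22 of them with a promoter window, and exons were not annotated. Counts per library were compared by an exact permutation test over libraries, two-sided, which with 2 against 2 cannot go below p = 0.333; calls at regions were counted with no test and set beside the same share over all genes. Scripts ran in Python 3.11.15 with pandas 2.3.3, numpy 2.4.6 and scipy 1.17.1, and were tested on simulated data with planted regions.

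Described singly were the 3 heart and muscle isoform genes with their ubiquitous forms, Cox4i1 and Cox4i2, genes with a region called in 1 group only, genes lacking a start call, genes with 4 or more regions, and the 3 strongest and 3 weakest starts. Other genes named for an extreme or a small count were chosen after their values were seen. The members and lists were chosen with earlier results of these data known. Alternatives changed the window, the −log10 p threshold, the list length, the overlap, the region definition, regions shared with other genes, the pairing and each library in turn.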

Additional observations from a re-analysis of the deposited data

How the results depend on the processing

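The alternatives were run for 6 counts and differences: member regions, called bases, WT-only regions, edKO-only regions, genes with complete start calls, and isoform regions. Neither WT minus edKO difference changed sign. Pileups, percentiles, CpG counts and motif shares had no alternative of this kind. The WT minus edKO difference of 5 regions ranged from 2 (1 kb window, lists of equal length, or without regions within 5 kb of another gene) to 8 (10 kb window), and from 1 to 8.5 when 1 library was left out, lowest without WT 2 and highest without WT 1. The difference of 5073.5 called bases was 1002 with 250 bases on each side of the summits and 1559.5 without shared regions, and 3729 to 6359.5 when 1 library was left out. Leaving 1 library alone in a group assumes that it varies like the others. With same-numbered hearts paired (replicate block), both differences were as before, 5 and 5073.5, with exact sign-flip p = 0.5, the smallest for 2 pairs; the numbers only name hearts, so this is no test of pairing.

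The count of 2 WT-only regions was 1 at a −log10 p of at least 5 and 1 with lists of equal length, in both cases because Cox7b lost its WT 2 call, 0 without regions within 5 kb of another gene, and 3 both at a −log10 p of at least 10 and with the 10 kb window. Without 1 library it ranged from 2 to 9, under a rule that asks for fewer libraries and is easier to meet. The count of 1 edKO-only region was 0 with the 1 kb window, at a −log10 p of at least 10, and without shared regions, and 1 to 4 without 1 library. The 28 genes with a start called in all 4 libraries became 15 without shared regions, which leaves fewer regions (23), 25 at a −log10 p of at least 10, and 28 to 30 without 1 library; without edKO 2, Cox8b and Uqcr11 joined them. The 2 regions of heart and muscle isoform genes called in all 4 libraries became 0 without shared regions and 2 to 4 without 1 library. With 2 hearts a group and no read depth per site, a site just under a threshold cannot be told from a closed one.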
